A study of Mus musculus with 29 samples.

Results

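Among 78408 sites in the mouse genome where at least 1 of 9 ChIP-seq peak lists had a peak, 1405 were bound by Atoh1 only in lines that also expressed Pou4f3 and were bound by Pou4f3 in lines without Atoh1. They are called prebound sites here. Windows of 300 bp centred on the summits of all 9 lists were joined where they shared at least 1 bp. A prebound site was occupied by Atoh1 in both iP+A and iGPA, had no Atoh1 peak in iAtoh1 or iG+A, and a Pou4f3 peak in iPou4f3 or iG+P. "Prior" Pou4f3 thus means Pou4f3 in another line, one without the Atoh1 transgene, and not an earlier time in the same cells.

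ChIP-seq (chromatin immunoprecipitation followed by sequencing) recovers the DNA fragments that a protein is attached to. The cells were mouse embryonic stem cell lines with a doxycycline-inducible cassette, differentiated in aggregates called embryoid bodies. The 6 lines carried Atoh1 (iAtoh1), Pou4f3 (iPou4f3), Gfi1 with Atoh1 (iG+A), Gfi1 with Pou4f3 (iG+P), Pou4f3 with Atoh1 (iP+A), or all 3 factors (iGPA), each followed by a Venus fluorescent reporter. All embryoid bodies received doxycycline at 2 µg/ml for 48 h and were collected on day 6, and no sort for the reporter is stated for ChIP. Atoh1 was precipitated through a FLAG tag and Pou4f3 through a MYC tag, so that only the transgenic proteins were recovered, whereas Gfi1, precipitated in iGPA only, was untagged. Each ChIP group had 2 libraries, except Gfi1 with 1, and the authors merged replicates before calling peaks, so no value here has a spread between replicates. The lists of a line share its cells and its input. Whether the cells expressed hair cell markers cannot be checked from peak lists.

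Atoh1 is a basic helix-loop-helix factor that pairs with E proteins and binds E-boxes, short motifs with the outer letters CA and TG. It is needed for the formation of inner ear hair cells and of several kinds of neurons. Pou4f3 is a POU homeodomain factor that binds AT-rich DNA and is needed for the maturation and survival of hair cells. Gfi1 is a zinc finger repressor that hair cells also need.

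The DNA of the strongest prebound sites shows both kinds of motif close together. Of the 10 sites ranked first by iGPA Atoh1 fold, 6 held both a match to ATAATTAAT with at most 1 mismatch (the Pou4f pattern, searched on both strands) and an E-box of Atoh1 type (CAGCTG, or the same 6 letters with GA or TA in the middle, searched on both strands). The DNA of 5 of these is shown as the plus strand of mm9, with the Pou4f and E-box matches in capitals.
chr16:11782365-11782428, intergenic, nearest gene Gm9961: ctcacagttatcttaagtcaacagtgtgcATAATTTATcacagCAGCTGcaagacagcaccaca
chr6:12777887-12777947, intergenic, nearest gene Thsd7a: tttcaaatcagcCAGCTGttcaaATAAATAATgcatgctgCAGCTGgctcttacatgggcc
chr19:6465307-6465384, in a non-coding exon of Nrxn2: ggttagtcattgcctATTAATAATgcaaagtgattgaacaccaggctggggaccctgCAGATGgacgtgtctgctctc
chr10:80866450-80866531, in an intron of Nfic: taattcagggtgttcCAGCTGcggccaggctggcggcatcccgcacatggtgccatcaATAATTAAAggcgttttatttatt
chr2:27973626-27973693, in an intron of F730016J06Rik, nearest gene Fcnb: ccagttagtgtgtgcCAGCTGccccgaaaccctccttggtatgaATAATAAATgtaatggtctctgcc
Between the Pou4f match and the E-box that each lay nearest to the Atoh1 summit, the centres were apart by 12.5 bp near Gm9961, 15.5 bp near Thsd7a, 40.5 bp at Nrxn2, 44.5 bp at Nfic and 30.5 bp near Fcnb. The order of the matches along the strand was not the same in all 5.

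The other 3 classes of prebound site are shown by the 60 bases around the iGPA Atoh1 summit of their strongest member, followed by the site with the highest Gfi1 fold.
chr6:46401430-46401489, E-box only, in an intron of Cntnap2: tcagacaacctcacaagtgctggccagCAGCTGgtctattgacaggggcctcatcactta
chr16:23253483-23253542, Pou4f pattern only, in an intron of St6gal1: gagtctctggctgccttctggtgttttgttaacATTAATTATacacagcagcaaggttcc
chr1:91446804-91446863, neither pattern, in an intron of Agap1: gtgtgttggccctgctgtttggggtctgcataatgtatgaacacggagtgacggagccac
chr8:94984424-94984483, highest Gfi1 fold, intergenic, nearest gene Irx5: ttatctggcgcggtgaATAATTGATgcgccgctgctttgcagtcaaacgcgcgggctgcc
At the first of these, the E-box lay next to the Atoh1 summit, and no Pou4f match stood in the 250 bp around it although Pou4f3 peaks were in all 4 of its lists. The St6gal1 site held a Pou4f match that spells the reverse complement of the searched letters exactly.

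Prebound sites made up 39.7% of the 3542 sites whose Atoh1 peak was in iP+A and iGPA only (95% exact Clopper-Pearson interval 38.1 to 41.3). All intervals below reflect the error of counting alone and treat nearby sites as if they were independent, which they may not be. Of the 4767 sites bound by Atoh1 in all 4 Atoh1 lists, called common Atoh1 sites here, 28.1% had prior Pou4f3. Of the 3001 sites bound by Atoh1 in iG+A and iGPA only, 17.99% did. The share was not highest for the prebound combination: at 797 sites with Atoh1 in iAtoh1, iG+A and iP+A but not iGPA it was 52.9%. These shares come from the lists that chose the sites and carry no test.

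From the side of Pou4f3, the prebound sites were 3.51% of the 39978 sites with prior Pou4f3 (3.34 to 3.70). The share was higher where the prior Pou4f3 peak was stronger. For this, only the prebound sites and the 28607 prior Pou4f3 sites without any Atoh1 peak were taken. Prior sites with other combinations of Atoh1 lists were left out, which raises the share. These sites were split into 5 bins of the highest prior −log10 p, which is the peak caller's significance at the summit. Prebound sites were 1.96% of the weakest bin and then 2.88%, 3.95%, 4.95% and 9.89%. The bins rest on lists that the rule used, so these shares are a description. Most strong prior Pou4f3 sites were not prebound sites in any bin.

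The thresholds of the rule passed through weak peaks. The lowest fold among prebound sites was 2.19 in the iP+A Atoh1 list and 2.10 in the iGPA Atoh1 list. The peak with the lowest −log10 p had a fold of 2.37 in iP+A, from 21 fragments over a background of 8.30. In iGPA such a peak had a fold of 2.22, from 22 fragments over a background of 9.37. Just outside, the weakest peak by −log10 p that kept a site out had a fold of 2.44 with 19 fragments in iAtoh1. In iG+A such a peak had a fold of 2.30 with 21 fragments. At 126 prebound sites (8.97%) an Atoh1 peak in iAtoh1 or iG+A had been called by the authors but not kept. A peak in iAtoh1 alone kept out 432 sites and a peak in iG+A alone 564, while 1238 sites lacked only the iGPA peak and 1737 only the iP+A peak. With a −log10 p of at least 10 asked of every peak, 443 prebound sites were found, and with Pou4f3 asked in both prior lists 837.

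In the lists that chose them, the prebound sites had moderate Atoh1 peaks and stronger Pou4f3 peaks. Fold enrichment is the number of ChIP fragments under the summit divided by that estimated from the surrounding background. The same small constant is added to both numbers before the division. Ranks are percentiles of fold within a list. The Atoh1 fold had a median of 3.33 in iP+A (rank 60.6, quartiles 2.90 to 4.30) and 4.18 in iGPA (rank 68.7, quartiles 3.20 to 6.03). Prior Pou4f3 had a median fold of 4.21 at the 1039 sites with a peak in iPou4f3 (rank 74.4) and 3.61 at the 1203 with a peak in iG+P (rank 72.3). A median Atoh1 peak rested on 31 fragments in iP+A and 33 in iGPA. The common Atoh1 sites ranked higher for Atoh1, with medians of 76.4 and 84.3 in these lists. All these values were selected on by the rule, and they are given without a test.

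**Figure D1:**
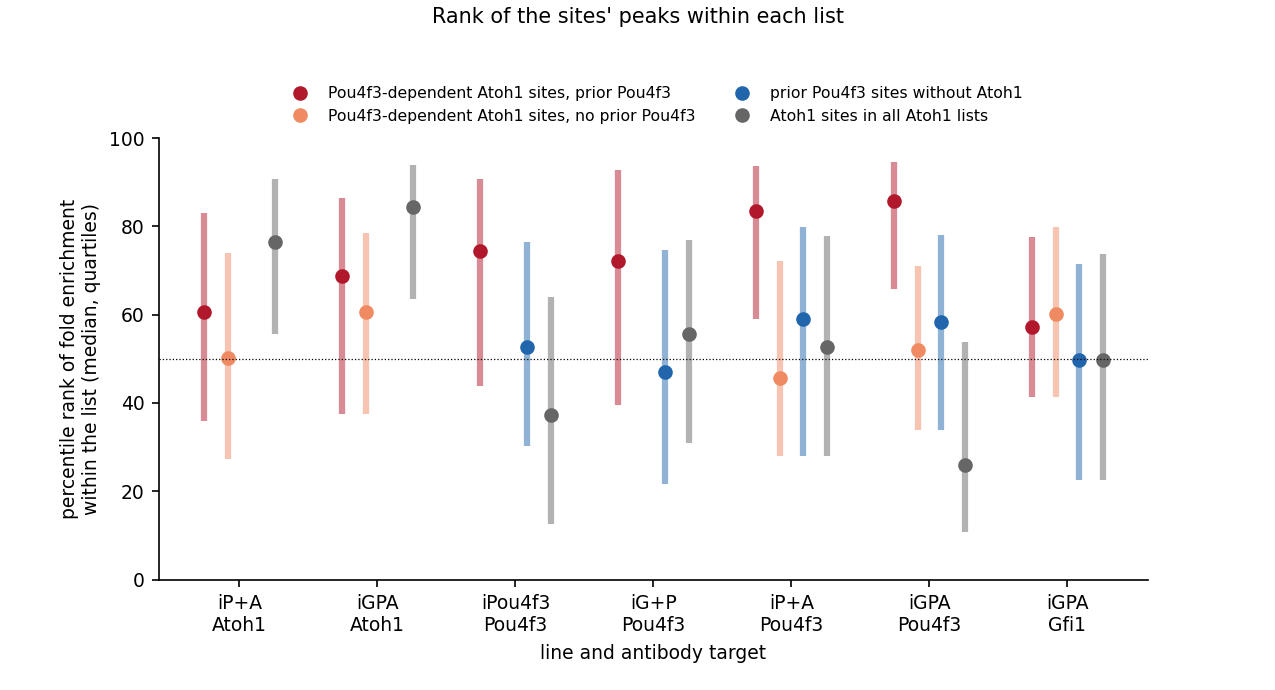
Percentile rank of fold enrichment within each of 7 lists (y axis, 0 to 100) for prebound sites (red), Pou4f3-dependent Atoh1 sites without prior Pou4f3 (orange), prior Pou4f3 sites without Atoh1 (blue) and common Atoh1 sites (grey). Points are medians and bars quartiles over the sites of a set that have a peak in the list, and the dotted line marks rank 50. In the Pou4f3 lists of iP+A and iGPA, the prebound sites have medians of 83.4 and 85.8.

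The rule did not use the Pou4f3 lists of iP+A and iGPA or the Gfi1 list, so these answer whether Pou4f3 and Gfi1 were also found there in the lines that express them with Atoh1. A Pou4f3 peak was present at 1025 prebound sites in iP+A (73.0%, 70.5 to 75.3), against 21.4% of all sites. In iGPA it was present at 1013 (72.1%, 69.7 to 74.4), against 23.8% of all sites. Gfi1 had a peak at 177 prebound sites (12.6%, 10.9 to 14.4), against 3.81% of all sites. Prebound sites thus had a Pou4f3 peak in most cases in both lines and a Gfi1 peak in a minority.

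The Pou4f3 peaks of the prebound sites were also high in rank. Their median fold was 4.19 in iP+A (rank 83.4, 36 fragments) and 7.43 in iGPA (rank 85.8, 51 fragments). The iGPA Pou4f3 list has a lower background than the iP+A list (5.87 against 7.83 fragments), and folds are not comparable between lists. The Gfi1 peaks had a median fold of 4.62 and a median rank of 57.2.

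Pou4f3 was in all 4 Pou4f3 lists at 701 prebound sites (49.9%, 47.2 to 52.5). At 265 sites (18.9%, 16.8 to 21.0) it was in neither iP+A nor iGPA, so that the only Pou4f3 peaks were those of lines without Atoh1. Of these, 117 had Pou4f3 in iG+P alone, 92 in iPou4f3 alone and 56 in both. The members can also be described by the prior lists, which the rule used: 837 had Pou4f3 in both and 568 in only 1. The shares with Pou4f3 in the lines with Atoh1 were 88.6% against 49.8% in iP+A and 88.4% against 48.1% in iGPA. For Gfi1 they were 15.8% against 7.92%.

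Prior Pou4f3 sites that no Atoh1 list contained, 28607 in number, less often had a Pou4f3 peak in the lines with Atoh1. They had a Pou4f3 peak in 27.9% of cases in iP+A, which is 45.0 percentage points below the prebound sites (95% Newcombe interval of the difference 42.6 to 47.4). In iGPA they had one in 39.2%, a difference of 32.9 points (30.4 to 35.2). A Gfi1 peak was at 1.09% of them, a difference of 11.5 points (9.87 to 13.3). A share of 18.5% in iP+A and 12.96% in iGPA of the common Atoh1 sites had Pou4f3.

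The Pou4f3-dependent Atoh1 sites without prior Pou4f3, 2137 in number, also had fewer Pou4f3 peaks. They were chosen for having no Pou4f3 peak in iPou4f3 or iG+P, so a lower Pou4f3 share was to be expected. The differences in Pou4f3 are therefore a description. The shares were 19.7% in iP+A, 53.2 points below the prebound sites (50.3 to 56.0), and 29.2% in iGPA, 42.9 points below (39.8 to 45.9). Gfi1 had a peak at 4.82% of them, a difference of 7.78 points (5.87 to 9.79). Against the common Atoh1 sites, where 10.5% had Gfi1, the difference in Gfi1 was small, at 2.07 points (0.2003 to 4.09).

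Since prebound sites had stronger prior Pou4f3 peaks than Pou4f3 sites without Atoh1, the comparison was repeated within the 5 bins of prior strength. In iP+A, 47.2% of the prebound sites in the weakest bin had Pou4f3 against 5.86%, and in the strongest 95.5% against 78.5%. The difference ranged from 17.0 to 41.3 points over the bins. In iGPA the strongest bin had 94.8% against 90.8%, a difference of 4.08 points (1.83 to 5.80), and the weakest 49.6% against 10.3%, a difference of 39.3 points (30.6 to 48.1). Gfi1 differences ranged from 5.69 to 17.7 points. Every interval of the 15 differences excluded 0, and in iGPA the gap narrowed to a few points where prior Pou4f3 was strongest.

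**Figure D2:**
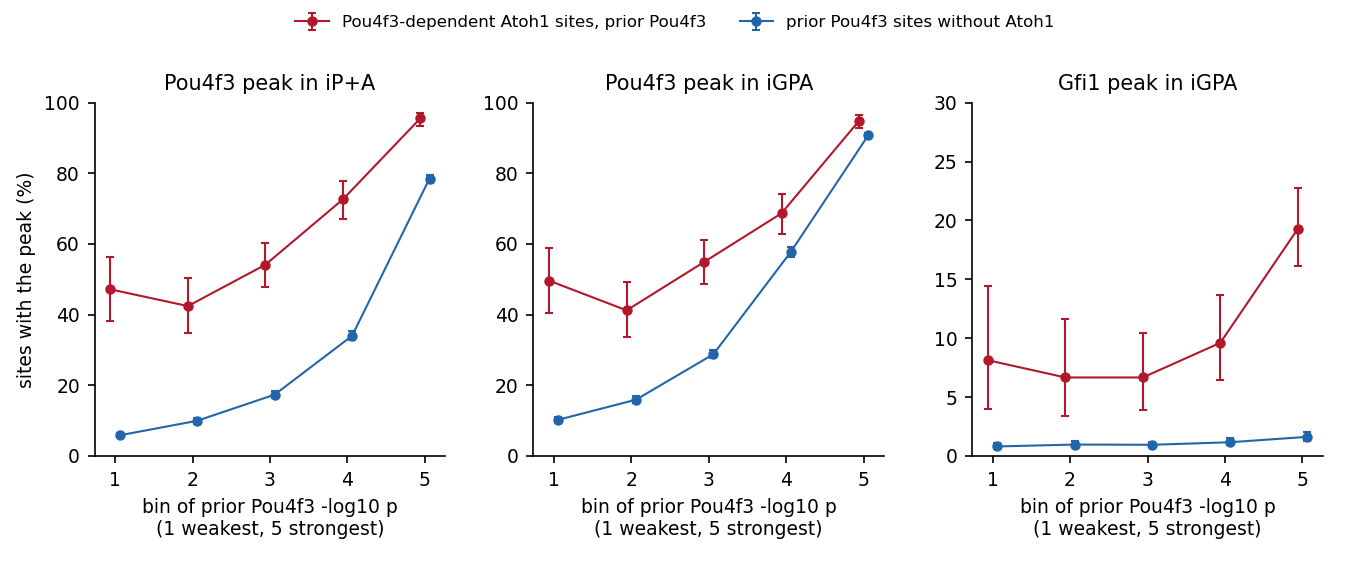
Share of sites (y axis, %) with a Pou4f3 peak in iP+A (left), a Pou4f3 peak in iGPA (middle) and a Gfi1 peak in iGPA (right, y axis to 30%) by bin of the highest prior Pou4f3 −log10 p. Red points are the prebound sites, blue points the prior Pou4f3 sites without Atoh1, and bars are 95% exact intervals. In the strongest bin 19.3% of the prebound sites had Gfi1 against 1.62% of the Pou4f3 sites without Atoh1.

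Among prior Pou4f3 sites with any other combination of Atoh1 lists, none had Pou4f3 in iP+A or iGPA as often as the prebound sites. The nearest were common Atoh1 sites with prior Pou4f3 in iP+A, at 51.8% (21.1 points below, 17.6 to 24.6). In iGPA the nearest were sites with Atoh1 in iGPA alone, at 45.7% (26.4 points below, 23.0 to 29.7). These sets were not matched for the strength of prior Pou4f3. Where common Atoh1 sites had prior Pou4f3, its median rank was 37.3 in iPou4f3 and 55.7 in iG+P. At prebound sites the medians were 74.4 and 72.3. The part of prior strength in these differences was not tested. For Gfi1 the prebound sites did not stand apart. Common Atoh1 sites with prior Pou4f3 had Gfi1 in 14.1% of cases, and the difference of −1.50 points had an interval of −4.05 to 1.05. The Atoh1 and Pou4f3 lists of iP+A come from the same cells with the same input, as do those of iGPA, and the part this has in the shared peaks was not tested.

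Ranks among Pou4f3 peaks can be described for sites with a peak both in a line without Atoh1 and in the matching line with it. The lists differ in length, with 22433 kept peaks in iPou4f3 and 17082 in iP+A, and 32632 in iG+P and 18751 in iGPA, and the lists without Atoh1 were used by the rule, so no test is given. Of 834 prebound sites, 60.7% had a higher rank in iP+A than in iPou4f3, against 28.6% of 6755 Pou4f3 sites without Atoh1. Of 934 prebound sites, 56.2% had a higher rank in iGPA than in iG+P, against 25.3% of 10412. Between iPou4f3 and iG+P, which differ by Gfi1 and have no Atoh1, the shares were 64.9% and 61.1%. The median change in rank of the prebound sites was small, at 1.74 from iPou4f3 to iP+A and 0.687 from iG+P to iGPA. From a starting rank below 50, 87.2% and 82.6% of them ranked higher, against 54.7% and 60.3% of the Pou4f3 sites without Atoh1. From a starting rank of at least 80, the shares were 50.8% and 40.9%, against 16.4% and 8.59%.

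A Pou4f match was found in the 250 bp around the iGPA Atoh1 summit of 512 prebound sites (36.4%, 33.9 to 39.0), against 24.8% of all sites. An E-box match was found at 969 (69.0%, 66.5 to 71.4), against 47.7% of all sites. Both were present at 406 (28.9%, 26.5 to 31.3), against 8.76% of all sites. For all sites, here and for the patterns below, the 250 bp were centred on the summit with the highest −log10 p in any list. The shares of prebound sites and of all sites are thus not from the same kind of window. In windows of the same length 1000 bp to each side of the prebound sites' Atoh1 summits, the shares were 8.01%, 33.1% and 2.28%. The matches were therefore concentrated at the summits. Without the mismatch, the 9 letters were found at 4.06% of the prebound sites, against 4.03% of all sites and 0.249% of the windows to each side.

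Around their Atoh1 summit, the prebound sites had more Pou4f matches and fewer E-boxes than the other Atoh1 sets. The sites without prior Pou4f3 were chosen for lacking Pou4f3 peaks, so fewer Pou4f matches there were to be expected. Pou4f3-dependent sites without prior Pou4f3 had the Pou4f pattern at 16.8% (prebound minus these 19.6 points, 16.7 to 22.6) and an E-box at 86.7% (prebound minus these −17.7 points, −20.5 to −14.9). Common Atoh1 sites had them at 3.48% and 85.3%. Both patterns together were at 15.8% and 2.37% of these sets, below the share at prebound sites by 13.1 points (10.3 to 15.9) and 26.5 points (24.2 to 29.0). A longer E-box consensus described for Atoh1, AtEAM, matched at 11.2% of the prebound sites, against 8.92% of all sites. It matched at 23.0% of the sites without prior Pou4f3 and 24.8% of the common sites.

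To set the prebound sites beside Pou4f3 sites without Atoh1, windows were centred on the strongest prior Pou4f3 summit of each. The Pou4f pattern was then at 40% of the prebound sites and 48.2% of the others (difference −8.17 points, −10.8 to −5.52). An E-box was at 59.5% against 25.6%, a difference of 33.9 points (31.3 to 36.5). Both patterns were at 29.6% against 13.2%, a difference of 16.4 points (14.1 to 18.9). The prebound sites thus had fewer Pou4f matches and more E-boxes than Pou4f3 sites that Atoh1 did not bind. The sets were chosen by their Atoh1 peaks, so more E-boxes at the prebound sites were to be expected.

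Of the E-boxes, CAGCTG was the most frequent, at 40.8% of the prebound sites, with CAGATG at 35.9% and CATATG at 6.98%. CAGCTG was at 51.1% of the sites without prior Pou4f3 and at 62.6% of the common sites. TAATTA, a core of many homeodomain motifs, was at 15.5% of the prebound sites, against 10.8% and 3.92% in these sets. The octamer ATGCAAAT of other POU factors was at 1.49%, against 1.83% of all sites. Its difference from the sites without prior Pou4f3 (−0.330 points) had an interval of −1.17 to 0.589. The Gfi1 motif letters AATCACTGC or AATCACAGC were at 6 sites (0.427%), against 0.733% of all sites.

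A count of all words of 6 letters, with no motif chosen in advance, gave the same picture. In the 100 bp around the summit, CAGCTG stood at 33.7% of the prebound sites against 4.73% of the flanking windows, the largest excess of any word. AATAAT came next, at 26.8% against 6.80%. The median AT content of the 250 bp windows was 51.2% at prebound sites, 50.4% without prior Pou4f3, 44.0% at common Atoh1 sites and, around their prior summit, 58.0% at Pou4f3 sites without Atoh1. AT-rich words match more often by chance in AT-rich DNA, and the part of base composition in the Pou4f shares was not tested.

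**Figure D3:**
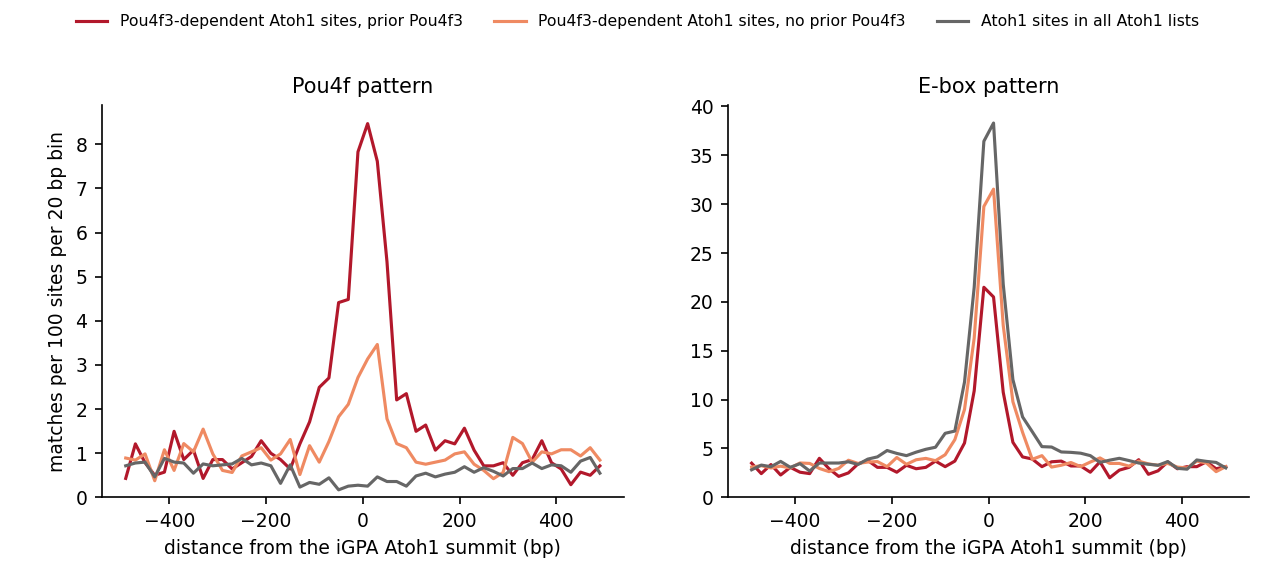
Matches to the Pou4f pattern (left) and the E-box pattern (right) per 100 sites in bins of 20 bp (y axis) by distance from the iGPA Atoh1 summit in bp (x axis). Red is the prebound sites, orange the Pou4f3-dependent sites without prior Pou4f3 and grey the common Atoh1 sites. The Pou4f curve of the prebound sites peaks at 8.47 matches per 100 sites beside the summit, where their E-box curve reaches 21.5.

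Within the prebound sites, E-boxes and Pou4f matches occurred together. Of the 512 sites with the Pou4f pattern, 79.3% had an E-box, and of the 893 without it 63.0%, a difference of 16.3 points (11.4 to 20.8). The difference had the same sign at the sites without prior Pou4f3 (8.999 points, 5.67 to 11.6). It had the opposite sign at the common Atoh1 sites (−17.9 points, −25.4 to −11.2), where 166 sites held the Pou4f pattern.

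The pattern classes of the prebound sites differed in their other peaks. Both patterns were at 406 sites, the Pou4f pattern only at 106, an E-box only at 563 and neither at 330. In iGPA, Pou4f3 was at 97.3% of the sites with both patterns, 84.0% with the Pou4f pattern only, 67.9% with an E-box only and 44.5% with neither. In iP+A the shares were 90.1%, 89.6%, 68.0% and 54.8%. Sites with both patterns exceeded those with an E-box only by 29.4 points in iGPA (25.2 to 33.6) and 22.1 points in iP+A (17.2 to 26.8). They exceeded those with the Pou4f pattern only by 13.3 points in iGPA (7.19 to 21.6), whereas in iP+A that difference was 0.525 points (−5.03 to 8.21).

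Gfi1 peaks followed the Pou4f pattern in a similar way. They were at 17.2% of the prebound sites with both patterns, 17.9% with the Pou4f pattern only, 10.8% with an E-box only and 8.18% with neither. The difference between both patterns and an E-box only was 6.41 points (2.01 to 11.004). Between an E-box only and neither it was 2.65 points (−1.51 to 6.43).

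Atoh1 fold in iGPA, one of the values the rule used, was highest where both patterns stood. Its median was 5.66 with both patterns, 4.10 with the Pou4f pattern only, 4.06 with an E-box only and 3.21 with neither. In iP+A the medians were 3.98, 3.23, 3.33 and 3.01. Prior Pou4f3 fold in iPou4f3 was instead highest with the Pou4f pattern only, at 6.30, against 4.99 with both.

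**Figure D4:**
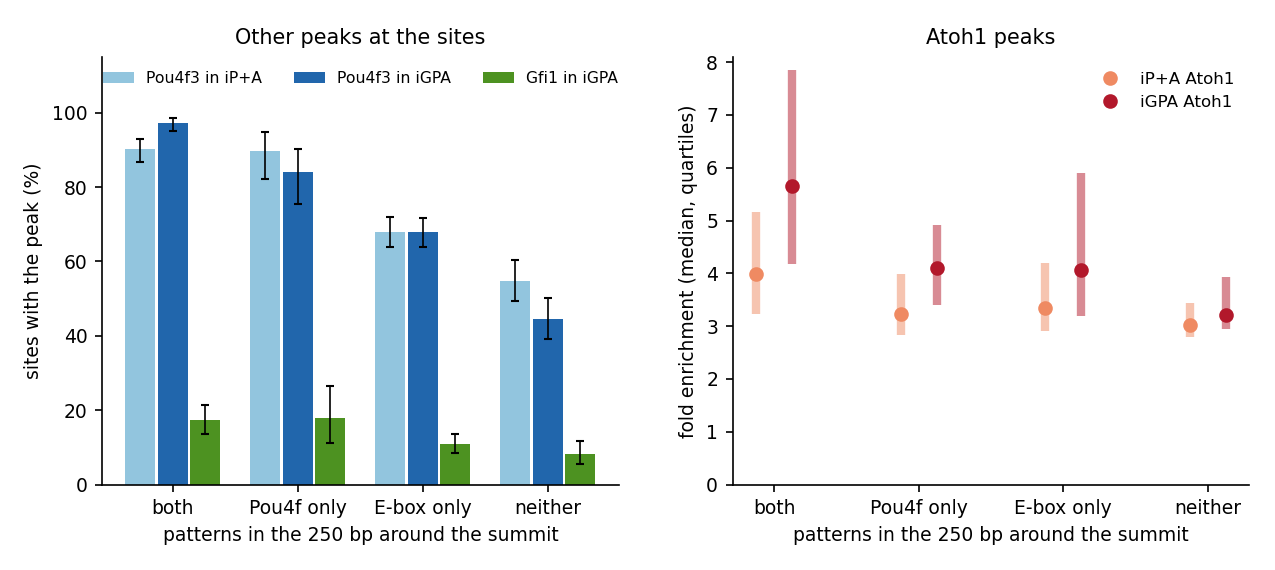
Left, share of prebound sites (y axis, %) with a Pou4f3 peak in iP+A (light blue), a Pou4f3 peak in iGPA (dark blue) and a Gfi1 peak in iGPA (green) by the patterns in the 250 bp around the summit, with 95% exact intervals. Right, Atoh1 fold enrichment in iP+A (orange) and iGPA (red) in the same classes, as medians with quartiles. The share with iGPA Pou4f3 falls from 97.3% with both patterns to 44.5% with neither.

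The summits of the factors lay close together at the prebound sites. The median distance from the iGPA Atoh1 summit was 29 bp to the iGPA Pou4f3 summit and 35 bp to that of iP+A. To the prior summits it was 46 bp (iPou4f3) and 43 bp (iG+P), and to the Gfi1 summit 43 bp. As a scale of the precision, the iP+A and iGPA Atoh1 summits were a median of 26 bp apart, and the iPou4f3 and iG+P Pou4f3 summits 21 bp.

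Each motif nonetheless lay nearer to the summit of its own factor. The nearest Pou4f match was a median of 29 bp from the iGPA Atoh1 summit and the nearest E-box 15.5 bp. In iGPA, the Pou4f match was nearer to the Pou4f3 than to the Atoh1 summit at 72.6% of 368 prebound sites (67.7 to 77.1), with median distances of 15 and 36 bp. The E-box was nearer to the Pou4f3 summit at 29.6% of 415 (25.3 to 34.3), with medians of 45.5 and 17.5 bp. In iP+A these shares were 71.9% and 28.3%.

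The centres of the nearest Pou4f and E-box matches were a median of 35.5 bp apart at the 406 prebound sites with both, and within 50 bp at 69.5% (64.7 to 73.9), taking the closest pair of matches in the window. At the 338 sites with both patterns but no prior Pou4f3 the median was 30.5 bp, with 69.5% within 50 bp (64.3 to 74.4). At the 113 such common Atoh1 sites it was 58.5 bp. Within 20 bp were 25.1% of the prebound and 27.2% of the other dependent sites.

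By position, 344 prebound sites lay within 1 kb of a transcription start (24.5%, 22.3 to 26.8), against 21.2% of all sites. A further 491 were in introns (34.9%), 539 intergenic (38.4%), 14 in untranslated exons, 10 in coding exons and 7 in exons of non-coding transcripts. The share near starts was 17.97% without prior Pou4f3 (prebound minus these 6.51 points, 3.76 to 9.31) and 29.6% at common Atoh1 sites (prebound minus these −5.12 points, −7.66 to −2.47). Among the 443 sites with a −log10 p of at least 10 in every list it was 14.2%. The median distance to the nearest start of the prebound sites was 10634 bp.

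The prebound sites near starts differed from the rest. The Pou4f pattern was at 10.8% of those within 1 kb and 44.8% of those farther away (difference −34.0 points, −38.2 to −29.3), and an E-box at 51.7% and 74.6%. Pou4f3 was at 41.9% and 81.9% in iGPA, and at 50% and 80.4% in iP+A. Gfi1 was at 7.27% and 14.3%. Leaving out every site within 1 kb of a start, the Pou4f pattern was at 25.2 points more of the prebound sites than of those without prior Pou4f3 (21.7 to 28.7). Against Pou4f3 sites without Atoh1, the differences in Pou4f3 were then 51.3 points in iP+A (48.8 to 53.7) and 38.4 in iGPA (35.9 to 40.7).

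The 10 prebound sites with the highest iGPA Atoh1 fold had Atoh1 folds of 20.8 to 38.4 in iGPA and 10.0 to 21.6 in iP+A. Folds are given in the order iP+A Atoh1, iGPA Atoh1, then Pou4f3 in the prior lists (iPou4f3, iG+P) and in the lines with Atoh1 (iP+A, iGPA). The intergenic site near Gm9961 had 21.6, 38.4, 19.9, 17.5, 14.4 and 34.98, and no Gfi1 peak. The site near Thsd7a, a thrombospondin-domain membrane protein, had 20.9, 33.5, 18.7, 12.6, 15.3 and 47.0. The site in Nrxn2, a neurexin of the presynaptic membrane, had 11.5, 32.5, 17.999, 16.6, 10.98 and 33.3. These 3 sites had high folds in all 6 of these lists and no Gfi1 peak.

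The site in an intron of Cntnap2, a neurexin-like axonal adhesion protein, had 16.1, 30.9, 14.5, 13.1, 13.02 and 30.1, and a Gfi1 fold of 9.90. The site in an intron of Nfic, a nuclear factor I gene, had 11.7, 27.3, 17.0, 16.2, 12.5 and 33.1, and a Gfi1 fold of 5.50. At the other 5 sites the prior Pou4f3 folds were lower, at 3.94 to 5.94, with ranks of 71.2 to 90.9 within their lists. The site near Prok2, a secreted prokineticin (chr6:99831527-99831936), had Pou4f3 folds of 4.64 and 4.38 in the prior lists and 10.5 and 21.0 in iP+A and iGPA. Near Kcnk16, a potassium channel (chr14:21063575-21063895), Pou4f3 was absent from iPou4f3 and had 3.94 in iG+P, then 10.6 and 34.1.

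Near Zcwpw2 (chr9:117831380-117831710) Pou4f3 had a prior fold of 4.04 in iPou4f3 with no iG+P peak, and folds of 4.64 and 10.3 in iP+A and iGPA. Near Fcnb, a ficolin, they were 4.87, 4.597, 8.38 and 18.2, and near Nuf2, a kinetochore protein, 5.94, 5.25, 8.04 and 19.4. Prior folds of the 10 sites thus ranged from 3.94 to 19.9, above the median of their list in each case, and all 10 had Pou4f3 in iP+A and iGPA.

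**Figure D5:**
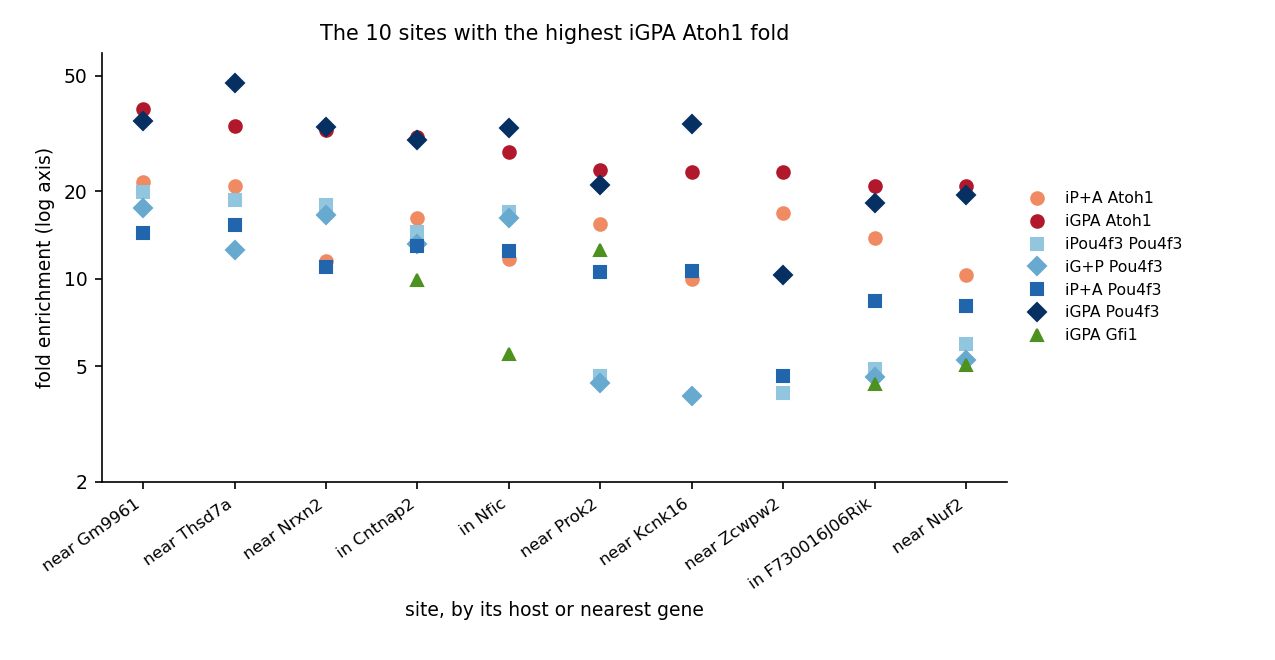
Fold enrichment (y axis, log scale) of the 10 prebound sites with the highest iGPA Atoh1 fold in each list that has a peak there. Circles are Atoh1, squares and diamonds Pou4f3 and triangles Gfi1, and a missing symbol means no kept peak. The 5 sites on the left have prior Pou4f3 folds of 12.6 to 19.9 and the 5 on the right of 3.94 to 5.94.

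The 5 highest Pou4f3 folds of prebound sites in the iPou4f3 list were elsewhere. In iG+P, the highest fold of a prebound site was 29.3, and none of these 5 reached it. Near Tusc5 (chr11:76518679-76519032) the Pou4f3 folds were 40.3, 18.2, 13.2 and 45.4 in the same order, with Atoh1 folds of 6.99 and 12.9 and neither pattern. In an intron of Dock2 (chr11:34197743-34198083) Pou4f3 had 39.8, 24.4, 15.8 and 45.0, and Atoh1 3.23 and 6.77. Sites in an intron of the calcium channel subunit gene Cacna2d2 (chr9:107319398-107319753) and near Jarid2, a Polycomb partner (chr13:44718350-44718743), had prior folds of 38.0 and 36.1 and iGPA Atoh1 folds of 8.37 and 6.65. The fifth, 121 bp from the start of the elongation factor gene Ell (chr8:73063303-73063657), had Pou4f3 in iPou4f3 alone, at 34.5, and Atoh1 folds of 2.40 and 3.45. It was in none of the other 3 Pou4f3 lists.

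The highest Gfi1 folds were 16.7 near Irx5, an Iroquois homeobox gene, 14.1 in an intron of the chemokine gene Ccl1 (chr11:82108891-82109289) and 13.6 at Brd2, a bromodomain gene (chr17:34257905-34258626). The first 2 had all 4 Pou4f3 peaks, with iGPA folds of 12.7 and 17.0. The site at Brd2 had Pou4f3 in iG+P alone, at 3.39, and neither pattern.

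The 1405 prebound sites had 1219 different nearest genes, by the nearest start of a protein-coding or listed gene. Of these genes, 1067 had 1 prebound site, 123 had 2 and 29 had 3 or more. The nearest gene need not be the one a site acts on, and no expression was measured here. Ext1, an enzyme of heparan sulfate synthesis, and Elavl4, a neuronal RNA-binding protein, had 4 each. Gli2, a transcription factor of Hedgehog signalling, Odz4, a teneurin, and Gse1 had 3 each.

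Elavl4 had 12 sites in all, of which 4 were prebound, none was a Pou4f3-dependent site without prior Pou4f3 and none a common Atoh1 site. Its iGPA Atoh1 folds were 3.81 (94938 bp from the start), 4.43 (70461 bp), 3.45 (11989 bp) and 3.20 (157 bp). The iGPA Pou4f3 folds of these sites were 11.8, 7.28, 6.12 and 4.66, so all 4 had Pou4f3 there. The best Gli2 site, in an intron (chr1:120777476-120777846), had Atoh1 folds of 10.9 and 14.5 and Pou4f3 folds of 9.51, 6.79, 9.85 and 14.9.

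Ighv1-73, Gm16387 and Rex2 also had 4 prebound sites each, but had 308, 133 and 101 sites in all. None of these 12 had Pou4f3 in iGPA, their iGPA Atoh1 folds were 2.23 to 4.06, and 10 had an Atoh1 peak in iAtoh1 or iG+A that was called but not kept by the authors. These 12 sites were thus weak, and most were near the limit of the rule.

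Genes of 8 lists were looked up as nearest genes. The lists overlap, and a site of a shared gene counts in each of its lists. The Runx1 sites count in the proneural and the blood lists. Those of Lhx3 and Pou4f3 count in the hair cell and the homeodomain lists. Proneural and neuronal differentiation regulators were nearest to 23 prebound sites (1.64%, 1.04 to 2.45), against 0.616% of all sites, at 14 of 51 genes. The share was 0.702% without prior Pou4f3 (difference 0.935 points, 0.227 to 1.79), 0.580% at Pou4f3 sites without Atoh1 (1.06 points, 0.505 to 1.87) and 0.755% at common Atoh1 sites (0.882 points, 0.266 to 1.72). These shares rest on starts of protein-coding or listed genes, a limit chosen after the data were seen. The alternative with starts of any transcript was taken for the axon guidance and hair cell lists only, where the shares were lower. The counts are small and the sites of a gene are not independent: Elavl4 had 4, Myt1l, a neuronal zinc finger gene, and Runx1, a regulator of blood and of sensory neurons, 3 each, and Ebf3 and Nfib 2 each. Single sites were nearest to Ebf1, Ebf2, Ebf4, Neurog2, Nfia, Pax2, Sox4, Sox11 and Cbfa2t3.

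Of these, the strongest iGPA Atoh1 site was in Nfia, with folds of 8.82 in iP+A and 13.8 in iGPA and both patterns. In iP+A the Cbfa2t3 site had a higher Atoh1 fold, at 9.57. The next folds are again those of the Nfia site. Pou4f3 folds there were 3.21 and 3.06 in the prior lists and 7.25 and 12.7 in iP+A and iGPA. The site 441 bp from the start of Neurog2, a proneural helix-loop-helix gene, had Atoh1 folds of 3.12 and 5.54 and Pou4f3 folds of 5.35, 5.03, 4.19 and 7.86. A site 288693 bp from Myt1l had Pou4f3 folds of 13.4, 10.6, 8.04 and 17.9.

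Axon guidance and neuronal migration genes were nearest to 23 prebound sites (1.64%, 1.04 to 2.45), against 1.42% of all sites, at 21 of 91 genes. The limit to starts of protein-coding or listed genes was chosen after the data were seen. With the nearest start of any annotated transcript the share was 0.925%. Under the limit, the difference from Pou4f3 sites without Atoh1 was −0.0828 points (−0.649 to 0.737). The strongest by iGPA Atoh1 fold was an intergenic site nearest to Rgmb, a repulsive guidance co-receptor. It had Atoh1 folds of 8.07 and 15.8 and Pou4f3 folds of 17.9, 20.4, 14.7 and 42.4. Others were in introns of Cntn2 and Dscaml1, adhesion molecules of axons, with iGPA Atoh1 folds of 11.7 and 11.1. Epha7, an ephrin receptor gene, was nearest to a site with iGPA folds of 9.23 for Atoh1 and 26.9 for Pou4f3.

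Hair cell genes were nearest to 11 prebound sites (0.783%, 0.391 to 1.40), against 0.636% of all sites, at 11 of 79 genes. With the nearest start of any annotated transcript the share was 0.427%. The differences from the 3 comparison sets were −0.106, 0.0314 and 0.133 points, and each interval included 0. Near Lhx3, a LIM homeodomain factor of hair cells, Atoh1 folds were 4.52 and 11.4, Pou4f3 folds 7.01, 8.43, 4.19 and 18.6, and Gfi1 4.12. A site 1344 bp upstream of Pou4f3 itself had Atoh1 folds of 3.23 and 3.69 and Pou4f3 folds of 18.2, 11.9, 8.38 and 18.2. In an intron of Slc8a2, a sodium-calcium exchanger, the Pou4f3 folds were 17.4, 14.1, 12.8 and 19.5. These sites had Pou4f3 in all 4 lists.

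The other hair cell sites were nearest to Ocm (oncomodulin), Fam65b and Espnl (hair bundle proteins), Ikzf2 (a transcription factor of outer hair cells), Cabp2 (a calcium-binding protein), Barhl1 (a homeodomain factor), Atp2b2 (a calcium pump) and Sox2. Their iGPA Atoh1 folds ranged from 2.46 at Atp2b2 to 7.63 at Ocm. At Atp2b2 the only Pou4f3 peak was in iG+P, at 3.17.

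None of the 29 Notch pathway genes was nearest to a prebound site, which allows a share of up to 0.262% (exact upper limit), against 0.279% of all sites. The share was 0.515% without prior Pou4f3 (difference −0.515 points, −0.919 to −0.1599) and 0.629% at common Atoh1 sites (difference −0.629 points, −0.897 to −0.298). Against Pou4f3 sites without Atoh1, at 0.224%, the interval of the difference (−0.286 to 0.0532) included 0. Notch signalling is the route by which new hair cells and neurons hold back their neighbours. With so low a share over all sites, few members would carry these genes in any case, and this was 1 of 8 lists looked up.

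The remaining 4 lists had few prebound sites. The list of Pou4f and LIM homeodomain genes also holds the LIM-only gene Lmo1, which has no homeodomain. Its genes were nearest to 5 (0.356%), against 0.202% of all sites, at Pou4f1, Pou4f3, Lhx3, Lhx8 and Lmo1. Neurotrophin receptors and ion channels of sensory neurons were nearest to 5 (0.356%), against 0.236% of all sites. Among them a site in an intron of Ntrk3, the receptor of neurotrophin-3, had Pou4f3 folds of 31.5, 18.8, 13.2 and 34.7. Pluripotency regulators were nearest to 2 (0.142%), against 0.140% of all sites, and blood regulators to 4 (0.285%), against 0.153% of all sites. The pluripotency pair were Esrrb, with Atoh1 folds of 4.84 and 11.6, and Sall4, with Pou4f3 folds of 23.9, 15.4, 18.3 and 32.2. No interval of a difference between the prebound sites and a comparison set excluded 0 for these 4 lists.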

How the data were processed

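The members of the set and the gene lists were chosen with earlier results of these data known. According to the methods of the study, reads were adapter-trimmed and mapped to mm9 (Bowtie 2). Duplicates, low-quality alignments and blacklisted regions were then discarded, and MACS 2 was run on the ChIP replicates merged, with the inputs of the line merged as control. The peak lists deposited by the authors give fold enrichment, a ratio of fragments to local background, and the −log10 p at the summit. The summit lists deposited by the authors name the peaks that were kept and carry a score that is not defined in the sources used here and was not used. Between 14.1% and 35.5% of the called peaks were not kept, by a filter not stated. Total reads were not analysed here, so depth is known only as the fragments at each peak, which were recovered from fold and −log10 p with a tolerance of 0.001 for 100% of the members' peaks. The commonest local background was lowest for Gfi1, at 3.55 fragments, and between 5.87 and 8.30 for the other lists with member peaks. A lower background gives coarser steps of fold.

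Groups came from the sample titles. Summits were joined into sites, classed by list, and their shares compared with Clopper-Pearson and Newcombe 95% intervals (scipy 1.17.1, statsmodels 0.14.6). Sites are not replicates, so no p-values were taken over them. Sequences and genes came from the NCBIM37 assembly, which is that of mm9, with its GENCODE annotation (pysam 0.24.0). Patterns were searched as letters on both strands, and overlapping matches of different patterns were allowed. Members were assigned to the nearest start of a protein-coding or listed gene, a choice made after small RNA genes were seen to be nearest otherwise, and the nearest start of any transcript was kept as an alternative. Sites within 1 kb of a start were judged on all annotated transcripts. Named sites were the 10 with the highest iGPA Atoh1 fold, the 5 highest in iP+A Atoh1 (all among those 10) and in iPou4f3, and the 3 highest for Gfi1, on chromosomes 1 to 19 and X, and named genes were the 8 with most members and those of the lists. The scripts were tested on simulated data. Other windows, thresholds, peak sets, prior lists, patterns and chromosomes were tried as alternatives. The sequence of 1 of the named sites with both patterns is not reported here.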

Additional observations from a re-analysis of the deposited data

Results flagged for a closer look

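The members were chosen for having no kept Atoh1 peak in iAtoh1 or iG+A, but the full lists hold called peaks that the authors did not keep. These were not used in the comparisons above. A called but not kept Atoh1 peak in iAtoh1 or iG+A lay within 150 bp of 126 prebound sites (8.97%, 7.53 to 10.6), with 95 sites concerned in iAtoh1, 83 in iG+A and some in both. The share was 4.91% without prior Pou4f3 and 2.94% at Pou4f3 sites without Atoh1. Of these 126 sites, 7.14% had the Pou4f pattern, 35.7% an E-box and 14.3% Pou4f3 in iGPA. At the other 1279 members the shares were 39.3%, 72.2% and 77.8%, and the intervals of the 3 differences excluded 0. The part that the filter has in this was not tested.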

How the results depend on the processing

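No paired analysis was possible because the authors called peaks on merged replicates, which also leaves no replicate to leave out. Of the alternative values, 81 held and 33 moved. A share or median held if it stayed within the interval of the reported value, a count if it stayed within 1.5 times, and a difference from Pou4f3 sites without Atoh1 if its interval stayed above 0. Those differences all held but varied in size, from 17.0 to 51.3 points for Pou4f3 in iP+A, 4.08 to 39.3 in iGPA and 5.69 to 17.7 for Gfi1, over bins of prior strength and sites over 1 kb from a start. With 100 bp windows, 74.5% of members had iGPA Pou4f3, 41.5% the Pou4f pattern and 33.1% both patterns, and 19.9% were within 1 kb of a start. With 1000 bp windows, 74.8% had iGPA Pou4f3, 72.7% an E-box and 27.0% a start within 1 kb. With every peak held to a −log10 p of 10 or more, the 443 members had Pou4f3 at 81.5% in iP+A and 86.0% in iGPA, the Pou4f pattern at 51.5%, an E-box at 80.1%, both at 45.6% and a start within 1 kb at 14.2%. Without called peaks in iAtoh1 or iG+A the shares were 77.2%, 78.9%, 40.2%, 73.0% and 32.4% in the order of the first 5. With both prior lists, the 837 members had Pou4f3 at 88.6% in iP+A and 88.4% in iGPA, Gfi1 at 15.8%, the Pou4f pattern at 46.1%, both patterns at 36.6% and a start within 1 kb at 21.3%. With all called peaks, 27.5% of members were within 1 kb of a start. Of the reported members, 38.1% lay within 5 kb of a start. The Pou4f pattern was at 4.06% without a mismatch and at 25.7% in 100 bp around the summit. An E-box was at 58.0% in 100 bp, and AtEAM at 11.2%. The limit to starts of protein-coding or listed genes was chosen after the data were seen. With starts of any transcript, 0.925% were nearest to axon guidance genes and 0.427% to hair cell genes. Stricter settings gave fewer members, with higher shares of Pou4f3 and of both patterns. Peak lists limit these results: a site just under a threshold counts as unbound, merged replicates hide the variation between libraries, and the Gfi1 list rests on 1 library.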

Other observations

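Of the members, 5 lay on chromosome Y, which is 6.67% of the 75 sites there, and 5 on chromosome X (0.413% of 1212 sites). On chromosomes 1 to 19 the share ranged from 1.43% to 2.19%. Short tandem repeats held the iGPA Atoh1 summit of 4 members.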
